A study of Mus musculus with 6 samples.

Results

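Cirbp and Rbm3, the genes of the cold-inducible RNA-binding proteins CIRBP and RBM3, were followed through RNA sequencing of sorted mouse microglia. The members were taken by gene name and were 2 of the 55493 genes in the count table, and both were among the 18210 genes that passed the filter on low counts. The members were chosen by the CPM values of these same libraries: Cirbp had stood out in the treatment contrast, where its groups did not overlap, and Rbm3 was added to see how far the genes agree. Their levels and fold changes are therefore given as descriptions, with no test.

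The anti-LILRB4 group held 3 libraries of microglia from mice injected with an Fc-mutant antibody against human LILRB4, an inhibitory receptor of myeloid cells also called ILT3. The control antibody group held 3 libraries from mice injected with an Fc-mutant control antibody, labelled Ctrl IgG2a. All mice were male, carried the ILT Telo Tg human transgene and the 5XFAD transgenes, which make the brain deposit amyloid, and were 4 months old at the first of 8 weekly intraperitoneal doses of 60 mg/kg. Brains were perfused with cold buffer, and CD45-low CD11b-positive cells were sorted and their RNA made into libraries that do not mark strand. The labels do not say whether each library came from its own animal, and they give no time of day, body temperature or sort duration.

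CIRBP and RBM3 are small proteins with an RNA recognition motif followed by a glycine-rich tail. In mammalian cells both transcripts rise at mildly lowered temperature, while heat shock genes rise at raised temperature. In mice RBM3 is known for preserving synapses after cooling. CIRBP is known for binding clock gene transcripts and, once released from cells, for signalling through TLR4 on macrophages and microglia.

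Total counts were between 39805118 and 56345514 per library. The microglia markers P2ry12, Tmem119, Cx3cr1, Csf1r, Sall1, Fcrls, Siglech, Gpr34, Olfml3, P2ry13 and Trem2 were all detected in every library. They summed to between 43868 and 45903 CPM in anti-LILRB4 libraries and between 41044 and 44374 CPM in control antibody libraries. This shows microglia in every library and does not measure how pure the sort was. In 4 of the 11 markers all anti-LILRB4 libraries lay above all controls and in 0 below, beside 6.94% and 7.79% of all tested genes. CPM is the count of a gene divided by its library's TMM-scaled total in megareads. The transcript of the human LILRB4 transgene was at 850.4, 1304 and 3297 CPM in anti-LILRB4 libraries 1, 2 and 3, against 1029, 1031 and 1078 CPM in control antibody libraries 1, 2 and 3. Anti-LILRB4 library 3 thus stood apart from the others in the antibody's own target.

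Sequence bears on which reads can be told apart. Cirbp (ENSMUSG00000045193) lies on GRCm38 chromosome 10, 80165985 to 80172786, plus strand, and Rbm3 (ENSMUSG00000031167) on chromosome X, 8138975 to 8145880, minus strand. The coding sequences of Cirbp-202 and Rbm3-201 were identical at 328 of 450 aligned bases (72.9%). Their longest shared run was 11 bases, far shorter than the 150-base reads, so the genes are related but their reads are separable. The run lay at coding bases 196 to 206 in both transcripts. It is shown in capitals in the surrounding 71 coding bases, which cross from exon 3 into exon 4 of 7 in each gene (GENCODE M21, chr10:80170078-80170227 plus strand and chrX:8143922-8144617 minus strand, with an intron between).
Cirbp: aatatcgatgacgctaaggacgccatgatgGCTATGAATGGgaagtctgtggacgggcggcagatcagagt
Rbm3: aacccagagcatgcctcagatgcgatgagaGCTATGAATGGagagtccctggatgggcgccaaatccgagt

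The processed pseudogene Rbm3-ps was a much closer copy, identical to the Rbm3-201 coding sequence at 459 of 462 aligned bases (99.4%) with a longest shared run of 197 bases. How the reads of these copies were split is not given in the sources used here. Rbm3-ps held 49, 71 and 89 reads in anti-LILRB4 libraries 1, 2 and 3, against 116, 74 and 65 in control antibody libraries 1, 2 and 3, between 1.98% and 3.05% of the reads of Rbm3. With these reads added, the difference of mean log2 CPM for Rbm3 was -0.20, and it was also -0.20 for Rbm3 alone. The antisense gene Rbm3os shares 94 exon bases with Rbm3 and held between 16 and 41 reads a library, and without strand the reads of the shared bases cannot be assigned to one or the other. No annotated gene overlaps the exons of Cirbp, and its nearest downstream neighbour Fam174c starts 158 bases beyond it on the same strand. Fam174c was at 5.90, 7.17 and 9.01 CPM in anti-LILRB4 libraries 1, 2 and 3, against 8.50, 5.03 and 6.94 CPM in control antibody libraries 1, 2 and 3, so its groups overlapped where those of Cirbp did not.

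The region before a RefSeq start site of Cirbp is shown because the letters TCCCCGCC occur in it. They are described in mouse as the mild cold response element of Cirbp, bound by SP1. This region lies inside the gene as GENCODE M21 gives it, whose span begins further upstream, at 80165985. The 250 bases before the upstream RefSeq start site (GRCm38.p6, chr10:80167589-80167838, plus strand) hold 1 copy, in capitals, beginning 247 bases before the start.
Cirbp: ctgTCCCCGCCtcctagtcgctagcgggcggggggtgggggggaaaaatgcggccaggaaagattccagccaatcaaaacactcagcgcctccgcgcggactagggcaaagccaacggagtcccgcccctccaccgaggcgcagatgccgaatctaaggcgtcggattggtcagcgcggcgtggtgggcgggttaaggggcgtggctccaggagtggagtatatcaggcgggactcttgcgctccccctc
On either strand, 4.64% of 32851 RefSeq windows of this length hold TCCCCGCC. The same Cirbp window holds 2 copies of the CCAAT box, CCAAT (33.8% of windows hold it), 3 copies of the GC box, GGGCGG (32.7%), and 0 copies of the clock E-box, CACGTG (6.02%). None of these copies overlaps the TCCCCGCC copy. A second RefSeq start site of Cirbp lies downstream, and its window holds 4 copies of GGGCGG and 0 of the other motifs. These matches describe letters only.

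Cirbp was higher in every anti-LILRB4 library than in any control antibody library. It was at 120, 121 and 138 CPM in anti-LILRB4 libraries 1, 2 and 3, against 52.5, 76.7 and 80.2 CPM in control antibody libraries 1, 2 and 3. The means were 126 ± 10.4 CPM in the anti-LILRB4 group and 69.8 ± 15.1 CPM in the control antibody group (SD, n = 3 each). The level was 1.81-fold that of controls, a log2 fold change of 0.86 (standard error 0.16). The anti-LILRB4 libraries lay closer together, with a highest over lowest library of 1.15 in the anti-LILRB4 group and 1.53 in the control antibody group. Control antibody library 1 was the lowest of all, and without it the log2 fold change was 0.69. In 6.94% of tested genes all anti-LILRB4 libraries lay above all controls and in 7.79% all lay below. Having been chosen with this pattern known, Cirbp is not evidence for it. In sorted bulk cells, more RNA per cell and more cells that carry a transcript cannot be told apart.

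Rbm3, the closest relative of Cirbp, did not follow it. It was at 54.3, 61.8 and 83.3 CPM in anti-LILRB4 libraries 1, 2 and 3, against 85.9, 65.3 and 74.8 CPM in control antibody libraries 1, 2 and 3. The groups overlapped, since anti-LILRB4 library 3 lay above control antibody libraries 2 and 3. The means were 66.5 ± 15.1 CPM in the anti-LILRB4 group and 75.3 ± 10.3 CPM in the control antibody group (SD, n = 3 each), a difference smaller than the spread. On the log2 scale the fold change was -0.18 (standard error 0.17). Its size depended on single libraries, at -0.38 without anti-LILRB4 library 3, -0.05 without anti-LILRB4 library 1, -0.12 without anti-LILRB4 library 2 and -0.08 without control antibody library 1. Of all tested genes, 4.67% had a higher log2 fold change than Cirbp and 70.5% a higher one than Rbm3.

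**Figure D1:**
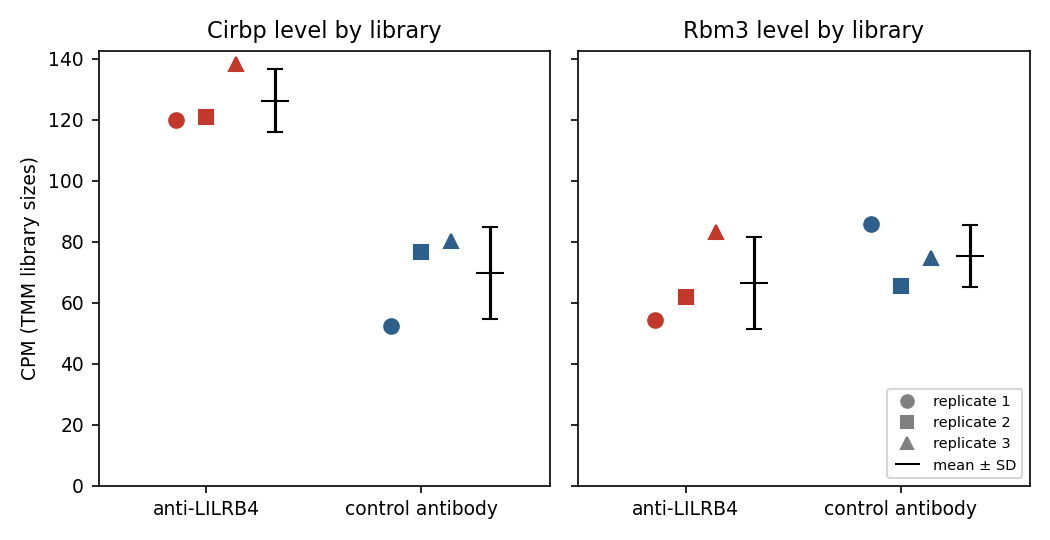
Level of Cirbp (left) and Rbm3 (right) in CPM on TMM library sizes, with a symbol per library, anti-LILRB4 libraries left of control antibody libraries, and black marks for the mean ± SD of 3 libraries. The anti-LILRB4 libraries sit between 120 and 138 CPM for Cirbp, above the highest control at 80.2 CPM, while for Rbm3 the groups overlap.

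The authors' deposited table gives a log2 fold change of 0.86 (standard error 0.18) for Cirbp and -0.18 (0.19) for Rbm3. It rests on the same libraries, so it is the same measurement fitted by the submitters.

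The order of the libraries differed between the genes. From high to low, Cirbp ran anti-LILRB4 3, 2 and 1, then control antibody 3, 2 and 1. Rbm3 ran control antibody 1, anti-LILRB4 3, control antibody 3 and 2, then anti-LILRB4 2 and 1. Control antibody library 1 was thus the lowest of 6 for Cirbp and the highest for Rbm3. For Cirbp, anti-LILRB4 libraries 1 and 2, and control antibody libraries 2 and 3, differed by less than the SD of their group, while for Rbm3 all neighbours in the order differed by less than the SD of either group. Counting error was at most 2.08% for Cirbp and 2.02% for Rbm3, from at least 2320 and 2448 reads a library, and covers counting only. The fitted variation between libraries of a group was 14.8% for Cirbp and 15.8% for Rbm3, so replicate spread and not depth set the precision.

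Within groups, the libraries stood in the same order for both genes in the anti-LILRB4 group and not in the controls. With 3 libraries each, and Cirbp nearly level in anti-LILRB4 libraries 1 and 2, this shows no difference between the groups. As log2 CPM minus the group mean, Cirbp stood at -0.07, -0.06 and 0.13 and Rbm3 at -0.27, -0.08 and 0.35 in anti-LILRB4 libraries 1, 2 and 3, so library 3 was highest for both. In control antibody libraries 1, 2 and 3 Cirbp stood at -0.39, 0.16 and 0.23 and Rbm3 at 0.20, -0.20 and -0.0012. Library 1, lowest for Cirbp, was highest for Rbm3 there. Over all 6 libraries, which share treatment groups, Pearson's r of log2 CPM was -0.43 and Spearman's rho -0.31. For the deviations from the group means r was -0.14. These are descriptions of 6 libraries, given without a p.

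The read ratio of Cirbp to Rbm3 within a library does not depend on scaling between libraries. It was 2.21, 1.95 and 1.66 in anti-LILRB4 libraries 1, 2 and 3, against 0.611, 1.17 and 1.07 in control antibody libraries 1, 2 and 3. Every anti-LILRB4 library held a higher ratio than every control. Cirbp had been chosen because its groups did not overlap in these libraries. The ratio carries that choice and is not separate support for it. The means were 1.94 ± 0.274 in the anti-LILRB4 group and 0.952 ± 0.300 in the control antibody group (SD, n = 3 each), a difference of 1.07 on the log2 scale. A ratio shows unequal change and not which of the genes changed.

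**Figure D2:**
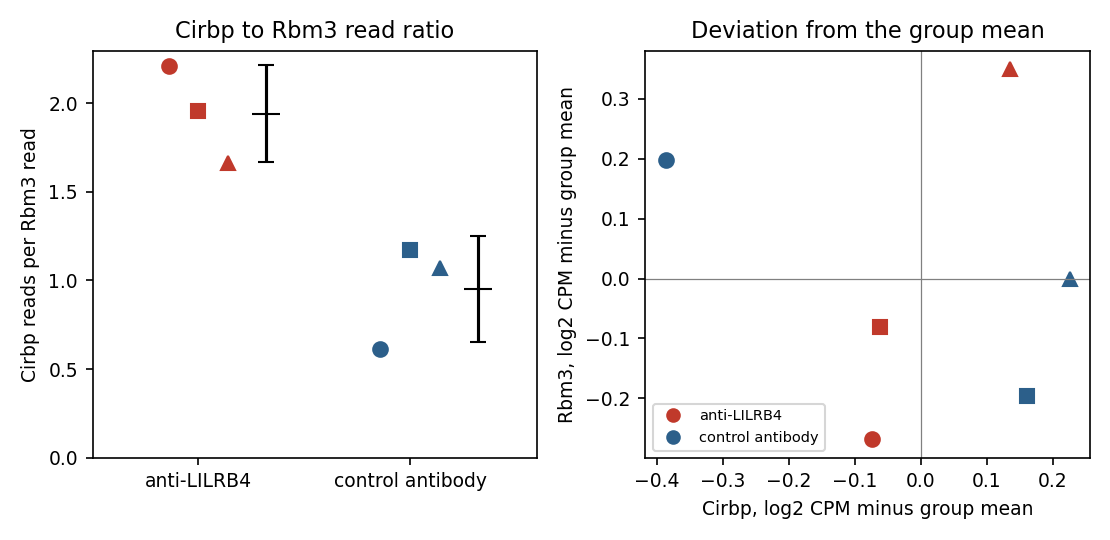
Left, Cirbp reads per Rbm3 read in each library, with the mean ± SD of 3 libraries, anti-LILRB4 left of control antibody. Right, deviation of each library from its group mean in log2 CPM, Cirbp across and Rbm3 up (circles, squares and triangles are replicates 1, 2 and 3 of each group). Anti-LILRB4 library 3 is high for both genes, and control antibody library 1 is low for Cirbp and high for Rbm3.

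Per kilobase of annotated exon, taken over all transcripts of a gene, Cirbp had the higher level in every library. This rests on that length, which exceeds single transcripts. Rbm3-201 is 2792 bases long, Rbm3-206 1338 and Rbm3-205 969, beside 1321 for Cirbp-202. Control antibody libraries 1, 2 and 3 held 0.611, 1.17 and 1.07 Cirbp reads per Rbm3 read. In each of them the gene that leads depends on the length used. With 2604 exon bases for Cirbp and 4698 for Rbm3, Cirbp averaged 48.5 ± 4.01 RPKM in the anti-LILRB4 group and 26.8 ± 5.80 RPKM in the control antibody group (SD, n = 3 each). Rbm3 averaged 14.1 ± 3.21 RPKM in the anti-LILRB4 group and 16.0 ± 2.19 RPKM in the control antibody group (SD, n = 3 each). By mean RPKM, Cirbp ranked 1344 and Rbm3 2905 of 18174 tested genes with a length. Counts here are per gene. GENCODE M21 lists 7 transcripts of Cirbp, of which 4 retain an intron and 1 is a target of nonsense-mediated decay. It lists 11 of Rbm3, of which 2 retain an intron and 2 are such targets, and none of these were resolved. The annotation behind the counts may differ from M21, and the lengths and ranks rest on M21.

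The profiles most like each gene were sought by Pearson's r of log2 CPM over the 6 libraries. The search covered 9015 protein-coding genes with a mean log2 CPM of at least 2, without those bearing provisional names. Nearest to Cirbp were Dvl2, a Wnt pathway adaptor (r = 0.99), Blm, a DNA helicase (0.99), Afap1l1, an actin-filament adaptor (0.99), Ipo5, a nuclear import receptor (0.99), and Ncf4, a subunit of the phagocyte NADPH oxidase (0.98). Rbm3 ranked 6807 in this order. Afap1l1 was at 19.3, 17.3 and 21.5 CPM in anti-LILRB4 libraries 1, 2 and 3, against 6.40, 10.9 and 12.7 CPM in control antibody libraries 1, 2 and 3. The log2 fold changes of these 5 genes were 0.78, 0.41, 0.95, 0.38 and 0.29, so only Dvl2 and Afap1l1 among them came near that of Cirbp.

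Nearest to Rbm3 were Tmed1, a secretory pathway cargo receptor (r = 0.99), Gtf3c3, a subunit of an RNA polymerase III factor (0.98), Ndufab1, the mitochondrial acyl carrier (0.98), Cybc1, a chaperone of the NADPH oxidase (0.97), and Rabl2, a small GTPase (0.97). Their log2 fold changes lay between -0.22 and -0.05. Cirbp ranked 6910 in this order. These r values are the highest of 9015 over 6 libraries that share the treatment groups, and describe likeness only.

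**Figure D3:**
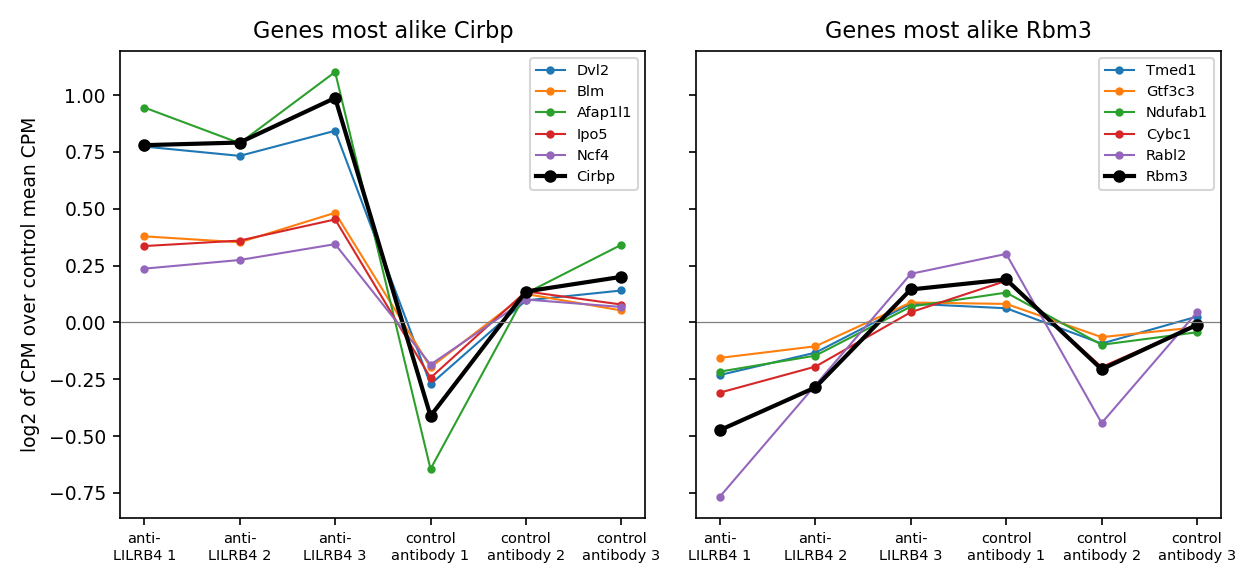
Log2 of CPM over the mean of the control antibody libraries, for Cirbp (left, black) and Rbm3 (right, black) and the 5 genes most alike each, in anti-LILRB4 libraries 1 to 3 and then control antibody libraries 1 to 3. The genes alike Cirbp are higher in all anti-LILRB4 libraries and lowest in control antibody library 1. Those alike Rbm3 peak in anti-LILRB4 library 3 and control antibody library 1.

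Related genes were tested in the fit over all 18210 genes, with edgeR's quasi-likelihood test at a Benjamini-Hochberg adjusted p of 0.05. It called 0 genes higher and 0 lower (0% each). At an unadjusted p under 0.05 there were 751 higher and 712 lower. DESeq2 on the same genes called 84 higher (0.546% of those with an adjusted p) and 85 lower (0.553%), and limma-voom 0 in each direction. The median log2 fold change over all tested genes was -0.01.

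Among known regulators, targets and partners of the cold-inducible proteins, 16 of 18 genes were measured and 0 passed in either direction in edgeR or DESeq2. At an unadjusted p under 0.05 there was 1 higher and 1 lower. The median log2 fold change was -0.0043. Hnrnph1, a splicing factor that regulates RBM3 in human cells, averaged 45.0 ± 5.15 CPM in the anti-LILRB4 group and 39.5 ± 7.66 CPM in the control antibody group (SD, n = 3 each). Clk1 and Clk4, temperature-sensitive kinases of splicing factors, had log2 fold changes of 0.02 and -0.09 (standard errors 0.10 and 0.16). Sp1, the factor of the cold response element, was at -0.01 (0.13).

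Rtn3, an endoplasmic reticulum protein whose synthesis RBM3 raises in mouse brain, averaged 265 ± 17.9 CPM in the anti-LILRB4 group and 268 ± 6.85 CPM in the control antibody group (SD, n = 3 each). Txn1, thioredoxin, whose transcript CIRBP binds in human cells, differed by -0.11 (standard error 0.18) on the log2 scale. The signs of Clk1, Clk4, Rtn3 and Txn1 turned when a single library was left out. Ntrk2, the receptor through which RBM3 is raised in mouse brain, was below 1 CPM in both groups on average.

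The receptors of extracellular CIRBP were present without passing the test. Of 5, Trem1 did not pass the filter on low counts, and of the other 4, 0 were called and the median log2 fold change was -0.11. Tlr4, the signalling receptor, was at 191, 148 and 210 CPM in anti-LILRB4 libraries 1, 2 and 3, against 219, 197 and 213 CPM in control antibody libraries 1, 2 and 3. Ly96, its co-receptor MD-2, was at 61.3, 64.1 and 76.1 CPM in anti-LILRB4 libraries 1, 2 and 3, against 98.7, 81.9 and 73.5 CPM in control antibody libraries 1, 2 and 3, with overlapping groups (log2 fold change -0.33, standard error 0.15, edgeR adjusted p 0.614). Cd14, the lipopolysaccharide co-receptor, and Il6ra, the interleukin-6 receptor, had log2 fold changes of -0.02 and 0.20.

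Clock genes, whose transcripts include known CIRBP targets, were measured for 20 of 22, and 0 were called in edgeR or DESeq2. Their log2 fold changes ran from -0.99 to 1.12 with a median of 0.03, and 10 were positive and 10 negative. In 2 all anti-LILRB4 libraries lay above all controls and in 4 below, beside 6.94% and 7.79% of all tested genes. Clock, which CIRBP binds in mouse fibroblasts, was at 50.2, 53.2 and 42.4 CPM in anti-LILRB4 libraries 1, 2 and 3, against 42.3, 38.8 and 36.5 CPM in control antibody libraries 1, 2 and 3. Its groups were parted by less than 1 CPM, and its log2 fold change was 0.31 (standard error 0.14, edgeR adjusted p 0.622).

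Cry2, a clock repressor, was at 14.8, 13.2 and 8.18 CPM in anti-LILRB4 libraries 1, 2 and 3, against 6.51, 6.64 and 3.48 CPM in control antibody libraries 1, 2 and 3 (log2 fold change 1.12, standard error 0.32, edgeR adjusted p 0.46). With no filter on low counts edgeR called it higher, with an adjusted p of 0.0164. That fit called many genes outside the lists too, where the filtered fit called none. Bhlhe40, a repressor of clock output, was at 5.36, 4.36 and 3.50 CPM in anti-LILRB4 libraries 1, 2 and 3, against 10.3, 7.26 and 8.03 CPM in control antibody libraries 1, 2 and 3 (log2 fold change -0.95, standard error 0.27, edgeR adjusted p 0.451). The groups of both genes did not overlap, in opposite directions.

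Heat shock genes, raised by warming rather than cooling, were measured for 22 of 26, with 0 called in edgeR or DESeq2 and a median log2 fold change of 0.05. The inducible Hspa1a and Hspa1b did not pass the filter on low counts. The smallest unadjusted p-values were those of Dnaja1, a co-chaperone, Hspd1, the mitochondrial chaperonin, and Chordc1, a partner of HSP90, the 3 genes of the list whose anti-LILRB4 libraries all lay below the controls (7.79% of all tested genes did). Dnaja1 averaged 97.7 ± 15.4 CPM in the anti-LILRB4 group and 133.5 ± 12.9 CPM in the control antibody group (SD, n = 3 each), with an edgeR adjusted p of 0.503. Hspd1 averaged 76.1 ± 3.65 CPM in the anti-LILRB4 group and 97.5 ± 14.0 CPM in the control antibody group (SD, n = 3 each), with an edgeR adjusted p of 0.538. Chordc1 had a log2 fold change of -0.33.

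Other RNA-binding proteins were measured for 24 of 24, with 0 called in edgeR and 1, Tardbp, called lower in DESeq2 (adjusted p 0.0137). Over all genes DESeq2 called 0.553% lower. In 3 of the 24 all anti-LILRB4 libraries lay above all controls and in 2 below, beside 6.94% and 7.79% of all tested genes. Their median log2 fold change was 0.03, between -0.55 and 0.42, all below the 0.86 of Cirbp. Cirbp had been chosen for standing out in this contrast, and only 4.67% of all tested genes lay above it. Its lead over these genes therefore does not set it apart from them. Tardbp, encoding TDP-43, was at 33.2, 31.2 and 29.9 CPM in anti-LILRB4 libraries 1, 2 and 3, against 47.0, 41.9 and 48.8 CPM in control antibody libraries 1, 2 and 3, without overlap (log2 fold change -0.55, edgeR adjusted p 0.426). Rbmx, an X-linked splicing regulator with a like domain layout, and Ewsr1, an RNA-binding protein of transcription and splicing, had log2 fold changes of 0.29 and 0.42 with overlapping groups.

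**Figure D4:**
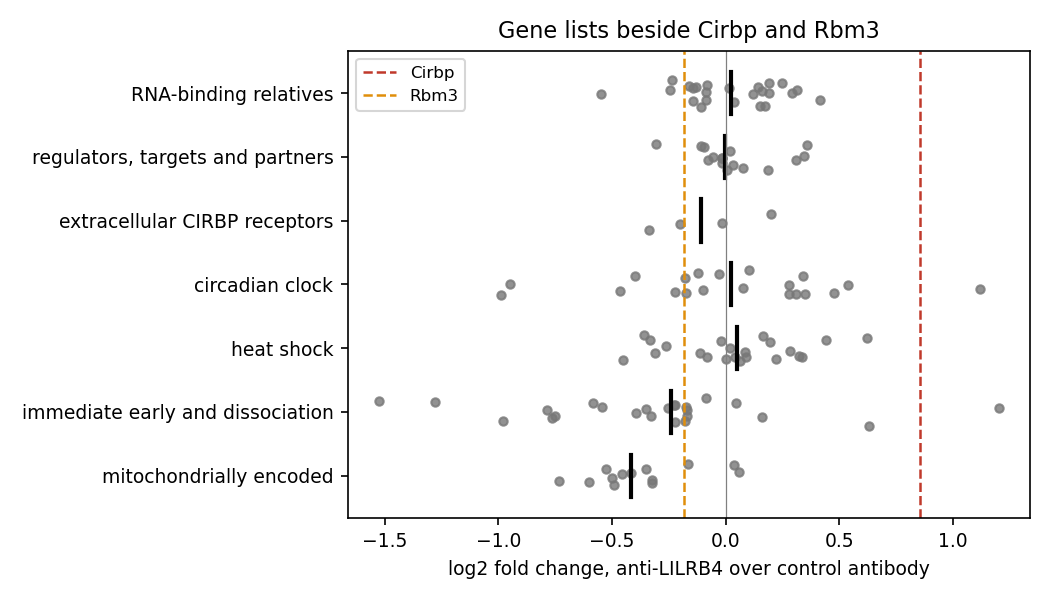
Log2 fold change (anti-LILRB4 over control antibody) of each measured gene in 7 lists, with a black bar at each list's median and dashed lines at Cirbp (0.86) and Rbm3 (-0.18). The RNA-binding, regulator, receptor, clock and heat shock lists centre near 0, with the medians of the immediate early (-0.24) and mitochondrially encoded (-0.42) lists below it.

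Several summed levels did not overlap between the groups, while those of most lists overlapped. Among single tested genes, 6.94% lay wholly above and 7.79% wholly below the controls, and no such share is at hand for sums. Mitochondrially encoded genes (13 of 13 measured, none at 0) summed to between 15687 and 17338 CPM in anti-LILRB4 libraries and between 19485 and 22918 CPM in control antibody libraries, highest in control antibody library 1. Immediate early and dissociation genes (24 of 25 measured, with Nr4a2 at 0 in some libraries) summed to between 3158 and 3319 CPM in anti-LILRB4 libraries and between 3621 and 4151 CPM in control antibody libraries, again highest in control antibody library 1. All anti-LILRB4 libraries lay below all controls in 10 of the 13 mitochondrially encoded genes and above in 0. For the immediate early list these counts were 11 and 1 of 24. In each of these lists edgeR called 0 genes and DESeq2 called 3 lower (mt-Cytb, mt-Co2 and mt-Atp6, and Junb, Klf4 and Ier2). Over all genes DESeq2 called 0.553% lower. Border-associated macrophage markers (8 of 8 measured, none at 0) summed to between 277 and 330.1 CPM in anti-LILRB4 libraries and between 197 and 250.4 CPM in control antibody libraries, lowest in control antibody library 1. Stab1 alone made up most of that sum, and the other 7 markers summed to 45.2, 45.9 and 76.7 CPM in anti-LILRB4 libraries 1, 2 and 3, against 52.5, 38.0 and 44.9 CPM in control antibody libraries 1, 2 and 3, with overlapping groups.

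Oligodendrocyte markers (6 of 7 measured, with Mog and Olig1 at 0 in some libraries) summed to between 159 and 171 CPM in anti-LILRB4 libraries and between 125 and 144 CPM in control antibody libraries. Without Cnp, the most abundant of them, the other 5 summed to 74.5, 52.7 and 60.9 CPM in anti-LILRB4 libraries 1, 2 and 3, against 53.2, 63.8 and 49.4 CPM in control antibody libraries 1, 2 and 3, and the groups overlapped. The mitochondrially encoded and immediate early sums still did not overlap without their most abundant genes, mt-Co1 and Dusp6. These sums without a gene were added after the data were seen. Neutrophil markers (10 of 12 measured, with Mmp8, Elane and Mpo at 0 in some libraries) overlapped, between 135 and 1131 CPM in anti-LILRB4 libraries and between 572 and 1338 CPM in control antibody libraries. They were highest in control antibody library 1, the library lowest for Cirbp, and next highest in anti-LILRB4 library 2. The part of these levels in the difference of Cirbp was not tested.

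**Figure D5:**
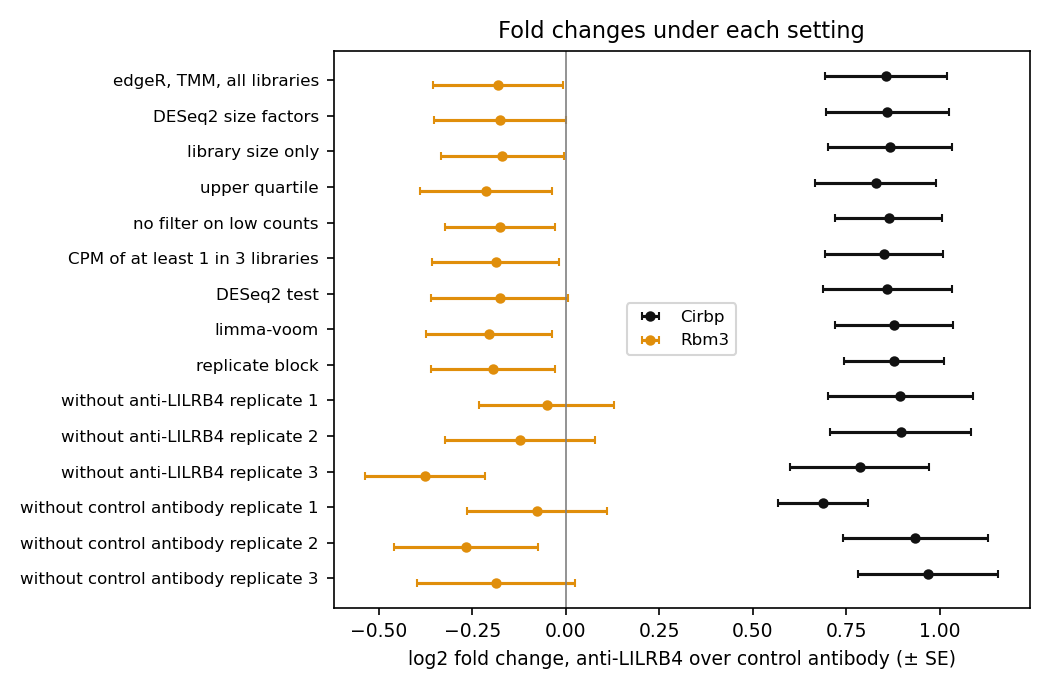
Log2 fold change ± SE of Cirbp (black) and Rbm3 (orange) in each fit, anti-LILRB4 over control antibody, with all 6 libraries under other scalings, filters, tests and a replicate block, and with each library left out. Cirbp lies between 0.69 and 0.97 and Rbm3 between -0.38 and -0.05 throughout.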

How the data were processed

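Whole read counts per Ensembl gene were deposited by the authors, not normalized. The submitters' processing notes list DESeq2 1.38.3, STAR, Salmon and featureCounts, with no order. Which genome build and annotation were used, and how multi-mapping reads were treated, is not given in the sources used here. Gene coordinates in the authors' comparison table differ from GRCm38 for both members and were not used. The authors' deposited comparison table holds a mean normalized count (a signal value), a log2 fold change with its standard error, a score and a p-value per gene, named as in DESeq2 per the file headers. Coordinates, exon lengths and coding sequences are those of GENCODE M21 (GRCm38), joined by identifier, and the promoter that of RefSeq (GRCm38.p6).

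From 55780 rows, 287 with a repeated identifier and identical counts were dropped. Genes were tested with edgeR 4.0.16 (R 4.3.3): filterByExpr (minimum count 10), TMM, and a quasi-likelihood F test between the treatments. Log2 CPM used a prior count of 2, and log2 fold changes are anti-LILRB4 minus control antibody. DESeq2 1.42.0 and limma 3.58.1 (voom) were alternatives. RPKM values divide CPM by the union of annotated exons. No 2 libraries of a group agreed within sampling noise. The p-values cover only the spread among these libraries, which may be technical.

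The members, lists and tests were chosen with earlier results of these data known. Genes named are the members, their main regulators and targets, the receptors, the 3 with the smallest p in the clock, heat shock and RNA-binding lists, and the 5 with the highest r for each member. Other genes of the lists, Fam174c and the marker genes were named in addition, after their values were seen. In 2 lists 1 gene each is not reported here and was left out of the list's values. Figures were drawn with matplotlib 3.10.9.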

Additional observations from a re-analysis of the deposited data

How the results depend on the processing

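The log2 fold change of Cirbp kept its direction in every fit run, between 0.83 and 0.88 under other scalings, filters, tests and the replicate block (0.88) and between 0.69 and 0.97 with each library left out. That of Rbm3 was between -0.21 and -0.17 (-0.19 with the replicate block), and between -0.38 and -0.05 with each library left out. The log2 difference of the Cirbp to Rbm3 ratio was between 0.78 and 1.25 with each library left out. Same-numbered libraries of the groups showed no shared deviation (correlations of 0.014, 0.029 and -0.014, beside -0.057 to 0.039 for other numbers). So few libraries cannot exclude a pairing by number. With the replicate block edgeR called 0 genes, as it did without. Over all genes edgeR called 300 with no filter on low counts (183 higher, 117 lower) and DESeq2 169, against 0 otherwise and 0 without any single library. In the 7 lists these were 9 of 132 genes (1 higher, 8 lower) and 7 of 123 (0 higher, 7 lower). For the fit without the filter no share over all genes is given here, so its 9 genes are not read as a result about the lists. Over all genes DESeq2 called 0.546% higher and 0.553% lower. The lists held 0 called genes otherwise and 0 without any single library. The cause was not tested. Clk1 turned to -0.0084 under upper quartile scaling. With libraries left out, 5 genes near 0 changed sign: Cd14 (-0.036 to 0.014), Clk1 (-0.0056 to 0.071), Clk4 (-0.22 to 0.029), Rtn3 (-0.044 to 0.049) and Txn1 (-0.26 to 0.094). Spread between libraries (14.8% for Cirbp, 15.8% for Rbm3), and not depth, limits both members.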
